A study of Mus musculus with 6 samples.

Results

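The 34 genes described here carry glucose into the cell, break it down to pyruvate, and send the pyruvate on to lactate, to acetyl-CoA or, one branch earlier, sugar phosphate to the pentose phosphate pathway. They were picked by symbol from the 23038 genes listed for each library, by a rule that uses no value, although the set was drawn up with earlier results of these data known. The libraries came from primary mouse oligodendrocyte precursor cells (mOPCs), cultured from mid-gestation mouse embryos after immunopanning, for which the labels name no engineered allele. Both groups were transfected and collected 72 h later, 3 libraries after control siRNAs (siNC) and 3 after siRNAs against Qk (siQk), the gene of the RNA-binding protein Quaking. The labels name 3 different siRNAs against Qk, and the sources used here do not tie them to libraries. The comparison addressed how transcript levels respond when Qk is knocked down in cells of a nonneuronal lineage.

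Glycolysis splits glucose into pyruvate and yields ATP without oxygen. Lactate dehydrogenases interconvert pyruvate and lactate, monocarboxylate transporters move both across the plasma membrane, and the pyruvate dehydrogenase complex commits pyruvate to the mitochondrial cycle unless its kinases switch it off. Cells of the oligodendrocyte lineage use glucose for lipid synthesis as they myelinate, and oligodendrocytes are known for releasing lactate to axons through the monocarboxylate transporter MCT1, the product of Slc16a1.

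Depth ranged from 58166490 to 141045937 tags per library. A tag is the estimated count assigned to a gene, and scaled RPKM below is the deposited RPKM divided by the library's TMM factor, which evens out library composition. Qk was at 233, 214 and 165 scaled RPKM in the siNC libraries and 48.8, 71.9 and 34.7 in the siQk libraries, so that the groups did not overlap. In siNC replicate 1, the smallest library, the ribosomal RNA gene Rn45s took 3.11% of tags against 0.169% to 0.389% in the others. The OPC markers were present in every library, with a summed level of 1084 to 1245 scaled RPKM in siNC and 1188 to 1307 in siQk, and Olig1 was the most abundant of them. Of the 10, 3 were called higher in siQk and 1 lower. Of 7 mature oligodendrocyte (OL) markers, 6 were tested and 5 were called lower in siQk, and the summed level of the 7 was 937 to 1838 in siNC against 445 to 684 in siQk. Of the 8 astrocyte markers, 4 of the 6 tested were called lower (summed level 215 to 311 against 170.1 to 194). S100b, not called, had the highest mean of the 8 (148 in siNC and 148 in siQk). The median log2 fold change of the 6 tested (siQk over siNC) was -1.22. Of the 7 tested neuron markers, 2 were called higher, Snap25 (mean 0.789 in siNC and 4.93 in siQk) and Nefl (1.98 and 6.03). The summed neuron level was 120.3 to 194 against 96.4 to 133. Tubb3, not called, made up most of that sum (mean 129 in siNC and 87.3 in siQk), and Stmn2 lay at or below 0.0456. Microglia markers summed to 0.798 to 3.43 in siNC and 0.316 to 0.392 in siQk with C1qa and C1qb at 0 in every library, and fibroblast and vascular markers to 0.614 at most with Cldn5 at 0. In bulk RNA, fewer cells of a type and less RNA per cell cannot be told apart, and the part of these markers in the results below was not tested.

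Few of the metabolic genes passed the test. Of the 34, 32 passed the expression filter (average log2 CPM over 0) and 4 passed the call rule, which asked of edgeR's quasi-likelihood test P below 0.01 with FDR below 0.1, which is 12.5% of the tested members, where 31.0% of all 12505 tested genes were called. Pkm, Hk1 and Pgd were higher in siQk, 3 members against a background of 13.8% of all genes called higher, and Slc16a1 was lower, 1 member against a background of 17.2% called lower. The groups did not overlap for 11 of the 32 members (34.4%), against 54.4% of all tested genes. The median log2 fold change (siQk over siNC) was -0.0042 for the members and 0.010 for all tested genes, and the median size of the change was 0.18 and 0.25, respectively. No member changed by 1 or more on the log2 scale, a size reached by 1008 of all tested genes. For 19 members the 95% interval of the log2 fold change lay within 0.5 of 0 on both sides, while for the other 13 it reached past 0.5 on at least one side. Before TMM scaling, the members together took 0.287%, 0.313% and 0.310% of tags in the siNC libraries and 0.369%, 0.361% and 0.358% in the siQk libraries, and Pkm alone went from 0.0388% to 0.0422% up to 0.0618% to 0.0672%. With that scaling the summed level of the members was 1346, 1419.5 and 1335 scaled RPKM in siNC and 1530.3, 1465 and 1479 in siQk.

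**Figure D1:**
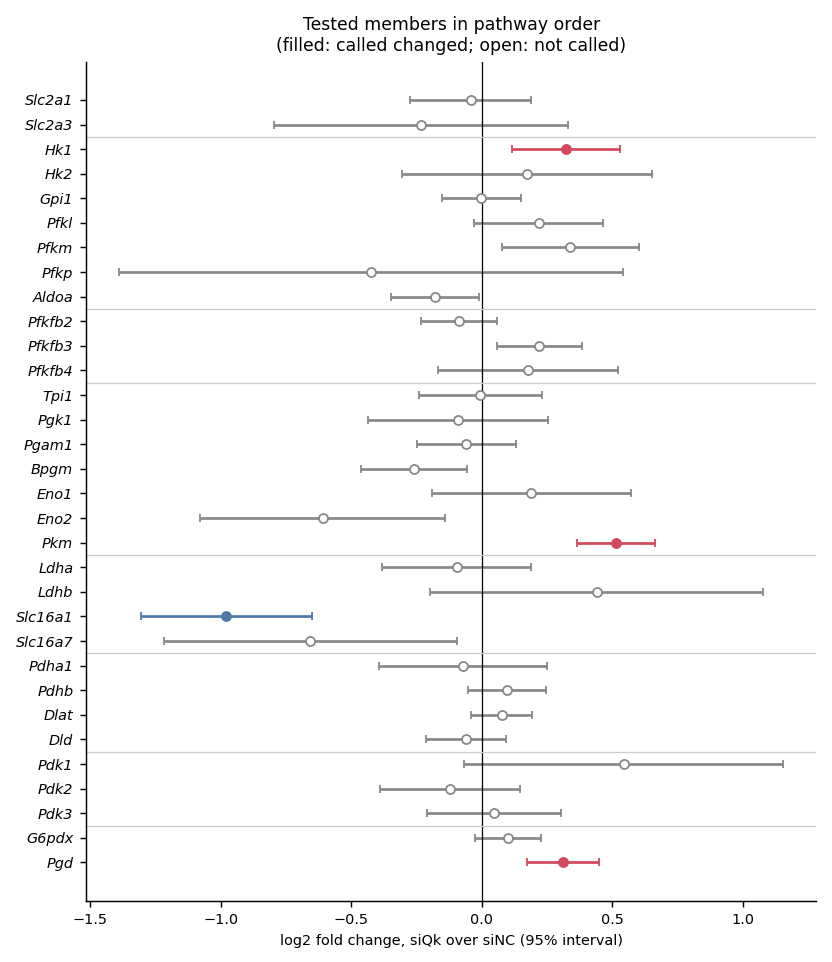
Log2 fold change (siQk over siNC) of the 32 tested members in pathway order, with the 95% interval as a bar; filled points were called changed (red higher, blue lower) and open points were not. The points of Pkm, Hk1 and Pgd lie right of 0 and that of Slc16a1 lies left, and the widest interval belongs to Pfkp (-1.39 to 0.54).

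The largest change among the called members was that of Slc16a1 (Entrez gene 20501), which lies at chr3:104638664-104658462 on the plus strand of GRCm38, the assembly also known as mm10. It stood at 8.08, 9.79 and 11.8 scaled RPKM in the siNC libraries and at 4.92, 5.22 and 4.96 in the siQk libraries. Each siQk library lay below each siNC library, and the siQk values were closer together than the siNC values. The mean went from 9.90 ± 1.88 (SD, n = 3) to 5.03 ± 0.165 (SD, n = 3), a log2 fold change of -0.98 (standard error 0.14, 95% interval -1.31 to -0.65, FDR 0.0032 from edgeR). Leaving out any 1 library gave log2 fold changes from -1.10 to -0.83, all still called. No other annotated gene shares its exons or a near-identical stretch of its transcript.

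Qki proteins bind ACUAAY in RNA, where Y is C or U, and often do so in 3'UTRs, so 3'UTRs, taken at their longest annotation per gene, were searched on the sense strand for ACTAAC and ACTAAT, the DNA spelling. Sites are shown for the called members and for Slc16a7, the other monocarboxylate transporter gene tested among the members. Slc16a1 held 2 motifs and Slc16a7, which was not called, held 4. Capitals mark the motif, with 11 bases on either side, read 5′ to 3′ on the sense strand from GENCODE M21 transcripts (GRCm38).
Slc16a1 site at chr3:104656130-104656157, plus strand, 419 bases after the stop codon: tgcttgaggtaACTAACcttaatcttgt
Slc16a1 site at chr3:104657300-104657327, plus strand, 1589 bases after the stop codon: tcttcattcttACTAATttttattttat
Slc16a7 site at chr10:125227737-125227764, minus strand, 259 bases after the stop codon: tgatgaaaacaACTAATtttttaaatct
Slc16a7 site at chr10:125225666-125225693, minus strand, 2330 bases after the stop codon: tacctttagaaACTAATatagctatcag
Slc16a7 site at chr10:125222506-125222533, minus strand, 5490 bases after the stop codon: acatcacagtgACTAATttttctttaca
Slc16a7 site at chr10:125222084-125222111, minus strand, 5912 bases after the stop codon: cccatcttttcACTAACatttcttttag
These 3'UTRs are long, 2740 bases in Slc16a1 and 8742 bases in Slc16a7. The deposited exon length of Slc16a7 is 2498 bases, so part of its searched 3'UTR lies outside the bases counted for its level. Of the 32 tested members, 9 (28.1%) held a motif, as did 36.1% of the 11831 tested genes with a 3'UTR of at least 50 bases and 28.0% of the 1856 among them with a 3'UTR length near the members' median. Slc2a1, Hk2, Pfkm, Pfkfb2, Eno2 and Pdk1 held 1 each and Dld held 2, and no motif was found in the 3'UTRs of Pkm, Hk1 and Pgd. A match describes the letters and does not show binding.

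Slc16a7 encodes MCT2, a transporter with high affinity for pyruvate and lactate. Its level was 13.7, 7.28 and 9.31 in siNC and 6.17, 5.54 and 7.44 in siQk. The highest siQk library overlapped the lowest siNC library, and siNC replicate 1 stood above the rest. The log2 fold change of -0.66 (95% interval -1.22 to -0.10) did not pass the call rule (FDR 0.0668 from edgeR), and it ranged from -0.38 without siNC replicate 1 to -0.85 without siNC replicate 2, where it was called. DESeq2 and the likelihood ratio test also called it. Slc16a3, which encodes the lactate exporter MCT4, was too low to test, at 0.0441 to 0.0685 scaled RPKM.

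Lactate dehydrogenase combines A and B subunits. Ldha, the A subunit, which favours lactate formation, was at 107, 92.8 and 128 in siNC and 109, 99.3 and 99.1 in siQk, overlapping (log2 fold change -0.10, 95% interval -0.38 to 0.19). Ldhb, the B subunit, was at 87.99, 191 and 110.1 in siNC and 187, 179 and 163 in siQk. One control library set the spread: siNC replicate 2 lay above all siQk libraries while replicates 1 and 3 lay below them. The log2 fold change of 0.44 (95% interval -0.20 to 1.08) was not called (FDR 0.233 from edgeR). Without siNC replicate 2 it was 0.83 and called (FDR 0.00653 from edgeR), and without siNC replicate 1 it was 0.23. Pfkp, a platelet-type phosphofructokinase, was also highest in siNC replicate 2 (14.4 scaled RPKM, against 6.37 and 4.29 in the other siNC libraries). So were the mature OL markers Mobp (26.2 against 5.69 and 1.64) and Mog (41.5 against 32.95 and 5.92). By contrast, Mbp (259 against 217 and 87.7) and Mag (193 against 164 and 56.3) were highest in siNC replicate 1. Cnp (1146 against 970 and 669) and Opalin (201 against 86.1 and 117) were also highest there. The part of the makeup of siNC replicate 2 in the Ldhb and Pfkp values was not tested.

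The entry to glycolysis held the second called gene. Glucose uptake itself did not pass the test: Slc2a1 (GLUT1) had a log2 fold change of -0.04 (95% interval -0.27 to 0.19) and Slc2a3 (GLUT3) of -0.23 (-0.80 to 0.33). Hk1 (Entrez gene 15275, chr10:62268855-62379920, minus strand), the main hexokinase of brain, traps glucose as glucose 6-phosphate. It was at 15.1, 14.03 and 17.2 scaled RPKM in siNC and 19.3, 20.1 and 18.5 in siQk, with each siQk library above each siNC library. The mean went from 15.5 ± 1.62 (SD, n = 3) to 19.3 ± 0.779 (SD, n = 3), a log2 fold change of 0.32 (standard error 0.09, 95% interval 0.12 to 0.53, FDR 0.0272 from edgeR). This call was the weakest of the 4. It was lost under 7 of 15 alternative settings, among them leaving out siNC replicate 1 (0.31), siNC replicate 2 (0.26), siQk replicate 1 (0.32), siQk replicate 2 (0.29) or siQk replicate 3 (0.35). The antisense gene Hk1os covers 3.67% of its exon bases, and the kit does not mark strand. Hk2, the inducible hexokinase, lay at 2.02 to 3.71 over all libraries and was not called.

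Phosphofructokinase catalyses the committed step. Its muscle-type gene Pfkm was at 51.5, 45.4 and 38.99 in siNC and 59.8, 53.02 and 59.1 in siQk, and the siQk libraries lay above the siNC libraries. The log2 fold change of 0.34 (95% interval 0.08 to 0.60) missed the P limit (FDR 0.0494 from edgeR), and it was called under 5 of 15 alternatives, among them leaving out siNC replicate 1 (0.44). Pfkl, the liver type, had 0.22 (-0.03 to 0.47), and Pfkp had -0.43 (-1.39 to 0.54), which became 0.23 without siNC replicate 2 and -0.74 without siNC replicate 3. Gpi1, which makes fructose 6-phosphate, lay at 48.4 to 52.6 scaled RPKM in every library. Aldoa, the aldolase that splits the sugar, was at 138, 148 and 130.4 in siNC and 125, 117 and 127 in siQk, just apart, and was not called (log2 fold change -0.18, FDR 0.089 from edgeR).

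The Pfkfb enzymes set the level of fructose 2,6-bisphosphate, an activator of phosphofructokinase. Pfkfb3, which favours its synthesis, was at 20.6, 20.2 and 18.9 in siNC and 21.7, 23.4 and 24.5 in siQk, without overlap. Its log2 fold change of 0.22 (95% interval 0.06 to 0.38) did not pass the P limit (FDR 0.0437 from edgeR). Pfkfb2 and Pfkfb4 had -0.09 and 0.18 and overlapping groups.

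**Figure D2:**
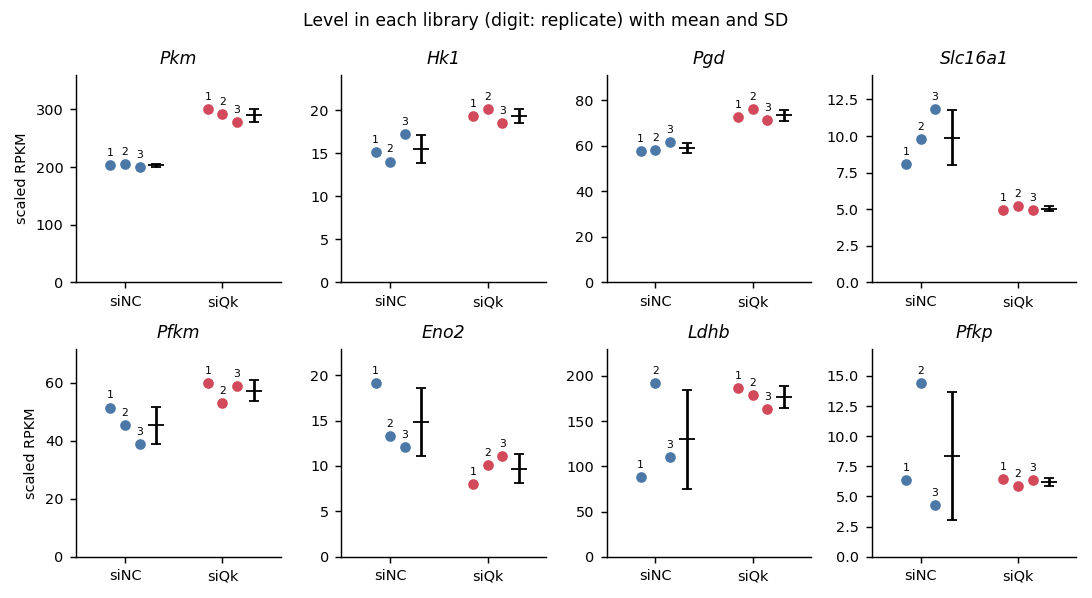
Scaled RPKM in each library for the 4 called members (top row) and for Pfkm, Eno2, Ldhb and Pfkp (bottom row); digits give the replicate, and black bars the mean and SD of 3 libraries. The groups are apart in the top row and for Pfkm and Eno2, while siNC replicate 2 stands above the other siNC libraries for Ldhb and Pfkp.

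On the way from triose phosphate to pyruvate, the enzyme of the last step changed. Pkm (Entrez gene 18746, chr9:59656576-59679372, plus strand) encodes the pyruvate kinases PKM1 and PKM2, which these gene totals do not separate, and it had the highest mean level of all members in both groups. It stood at 203, 206 and 200.01 scaled RPKM in siNC and 300.2, 291 and 278 in siQk. Each siQk library exceeded each siNC library, and the siNC libraries lay within a few units of each other. The mean went from 203 ± 2.90 (SD, n = 3) to 289.8 ± 10.99 (SD, n = 3), a log2 fold change of 0.51 (standard error 0.06, 95% interval 0.36 to 0.66, FDR 0.00214 from edgeR), with 0.49 to 0.54 when 1 library was left out. An annotated pseudogene repeats 65.5% of its longest coding transcript at 95% identity or more. The level may depend on how the authors assigned reads that fit both, which was not tested.

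The enzymes between were not called. Tpi1, Pgk1 and Pgam1, for triose phosphate isomerase, phosphoglycerate kinase and phosphoglycerate mutase, had log2 fold changes of -0.01, -0.09 and -0.06. Bpgm, which makes 2,3-bisphosphoglycerate, was at 39.6, 37.8 and 37.6 in siNC and 32.6, 28.4 and 34.99 in siQk, apart but not called (-0.26, FDR 0.0509 from edgeR), except by DESeq2 (-0.27) and without siQk replicate 3 (-0.33). Eno2, the neuronal-type enolase, was at 19.1, 13.3 and 12.1 in siNC and 7.99, 10.1 and 11.05 in siQk. Its siQk libraries lay below its siNC libraries, with siNC replicate 1 highest. The log2 fold change of -0.61 (95% interval -1.08 to -0.14) missed the P limit (FDR 0.0487 from edgeR) and was -0.39 without siNC replicate 1. It was called without siNC replicate 3 (-0.73), by DESeq2 and by the likelihood ratio test. Eno1, the widely expressed enolase, had 0.19 (-0.19 to 0.57).

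Pgd (Entrez gene 110208, chr4:149149991-149166705, minus strand) encodes 6-phosphogluconate dehydrogenase, which yields NADPH in the oxidative pentose phosphate branch. It was at 57.8, 57.9 and 61.5 scaled RPKM in siNC and 72.7, 75.98 and 71.2 in siQk. The groups were well apart, the lowest siQk library standing above the highest siNC library. The mean went from 59.1 ± 2.11 (SD, n = 3) to 73.3 ± 2.46 (SD, n = 3), a log2 fold change of 0.31 (standard error 0.06, 95% interval 0.17 to 0.45, FDR 0.00814 from edgeR), with 0.29 to 0.34 when 1 library was left out. G6pdx, which catalyses the step that opens this branch, was at 27.9, 29.1 and 28.6 in siNC and 31.2, 30.8 and 29.9 in siQk, apart by a narrow margin, and was not called (0.10, 95% interval -0.02 to 0.23).

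No member for the entry of pyruvate into the mitochondrial cycle was called. Pdha1, Pdhb, Dlat and Dld, the subunits of the pyruvate dehydrogenase complex, had log2 fold changes of -0.07, 0.10, 0.08 and -0.06, and all 4 intervals lay within 0.5 of 0. Of the inhibitory kinases, Pdk2 had -0.12 (-0.39 to 0.15), Pdk3 had 0.05 (-0.21 to 0.30) and Pdk1, the lowest member tested, had 0.54 (-0.07 to 1.16), which was 0.32 without siNC replicate 2. Pdk4 had 0 tags in all 6 libraries, which allows at most 0.00586 to 0.0166 scaled RPKM per library if 3 tags are taken as the limit, a limit that covers counting error only.

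Since RPKM is per exon length, related genes can be set side by side within a library as shares of their summed RPKM. The shares rest on the deposited exon lengths, such as 9699 bases for Pfkfb2 and 2498 bases for Slc16a7. The longest coding transcripts of these genes have 4425 and 10981 bases. The shares may also depend on how reads shared with pseudogenes were assigned, which is not given. Pseudogene copies cover 64.4% of the longest coding transcript of Eno1 and none of that of Eno2. With the copy in 1 gene not annotated as a pseudogene, the covered part of Eno1 is 85.6%. For Ldhb and Ldha they cover 76.8% and 55.0%. Hk1 made up 85.4% ± 1.84 (SD, n = 3) of the Hk1 and Hk2 sum in siNC and 86.6% ± 1.93 in siQk. Pfkm held most of the phosphofructokinase sum, at 65.4% ± 4.45 and 70.2% ± 0.141. Pdk2 and Pdk3 shared the kinase sum about evenly in siNC (48.1% ± 4.93 and 50.1% ± 5.51). Among 21 shares in 8 families, 3 did not overlap between groups. Pfkfb2 went from 26.8% ± 1.55 to 22.9% ± 0.528, Pfkfb3 from 63.8% ± 1.33 to 67.4% ± 0.663, and the very low Slc16a3 from 0.268% ± 0.0598 to 0.414% ± 0.0683. The shares of Pfkfb2 and Pfkfb3 belong to the same sum, so they are not independent. Exons of another gene on the same strand cover 27.1% of the exon bases of Pfkfb2. Slc16a3 itself did not rise, with means of 0.0534 scaled RPKM in siNC and 0.0471 in siQk on 6 to 23 tags. Each of the 3 shares reached p = 0.1 in the exact two-sided permutation test, the smallest that 3 libraries against 3 allow, and 0.615 after Benjamini-Hochberg adjustment over 20 shares. Ldhb made up 45.1%, 67.4% and 46.2% of the lactate dehydrogenase sum in siNC and 63.3%, 64.3% and 62.2% in siQk, so that siNC replicate 2 alone overlapped. Eno1 made up 34.6%, 35.9% and 48.2% of the enolase sum in siNC and 56.8%, 54.7% and 48.0% in siQk, and siNC replicate 3 overlapped. Slc16a1 and Slc16a7 kept overlapping shares of the transporter sum.

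**Figure D3:**
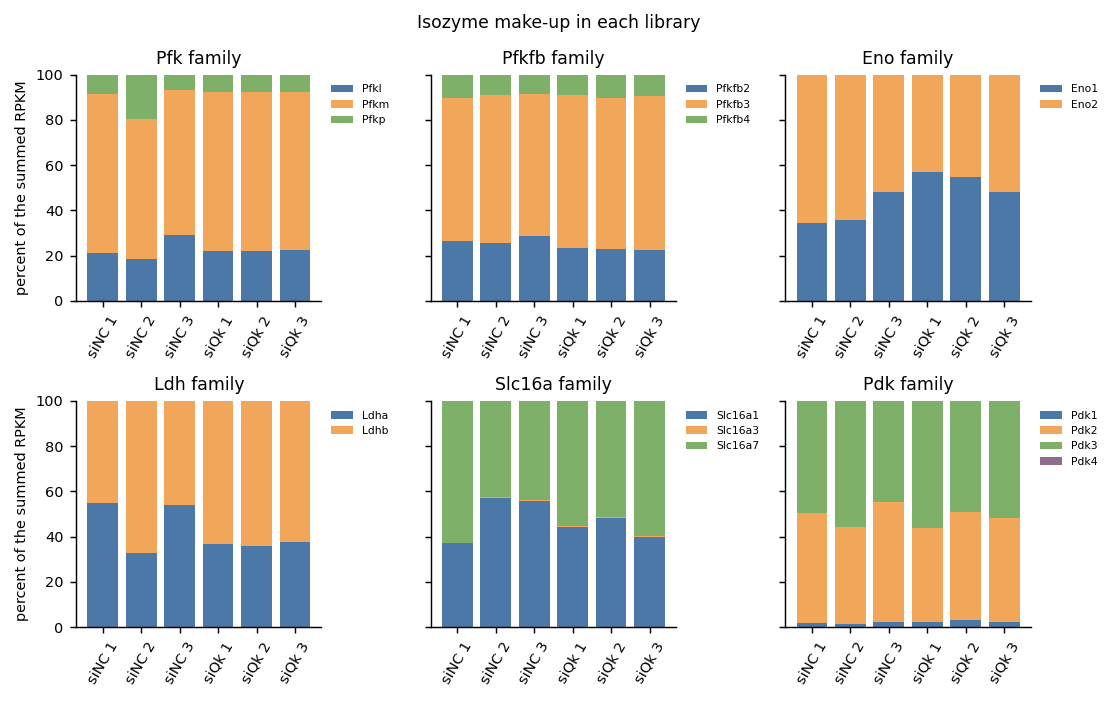
Share of each related gene in the summed RPKM of its family (percent, stacked to 100) in each of the 6 libraries. In the Ldh panel the Ldhb share of siNC replicate 2 (67.4%) is above the siQk shares, while those of the other siNC libraries (45.1% and 46.2%) are below them.

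The members were set beside 105 other genes of the connected pathways, of which 85 were tested and 24 (28.2%) were called, 6 higher and 18 lower, against the same background of 31.0%. Their median log2 fold change was -0.072. Glycerol 3-phosphate dehydrogenases, which draw triose phosphate toward lipid or pass its electrons to mitochondria, were among the called genes. Gpd1, the cytosolic form, was at 24.3, 21.5 and 13.6 in siNC and 7.41, 6.72 and 8.25 in siQk, without overlap, and fell by 1.41 on the log2 scale (FDR 0.00409 from edgeR). In the same list of 14 tested genes of gluconeogenesis and shuttles, 3 were higher and 3 lower, and Pcx, the pyruvate carboxylase that makes oxaloacetate, was the highest called gene, at 13.3, 10.5 and 11.9 in siNC and 15.2, 16.6 and 16.9 in siQk (0.45, FDR 0.0139 from edgeR).

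The mitochondrial pyruvate carrier fell. Mpc1 (Brp44l in the files) was at 16.3, 16.5 and 14.4 in siNC and 11.3, 10.4 and 11.3 in siQk (log2 fold change -0.51, FDR 0.00766 from edgeR). Mpc2 (Brp44) was at 155, 139 and 145 in siNC and 114, 115 and 120.0 in siQk, with -0.33 (FDR 0.00921 from edgeR). For both, each siQk library lay below each siNC library. Pdhx, which anchors the E3 subunit in the pyruvate dehydrogenase complex, was also called lower (-0.31, FDR 0.0233 from edgeR), so that 3 of 6 tested genes of that list fell and none rose, where 17.2% of all tested genes were called lower and 13.8% higher. Pdp1, the phosphatase that activates the complex, had 0.09 and was not called.

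Against the same shares over all tested genes, 2 of 6 tested genes fell, Rpe (-0.57) and Taldo1 (-0.47), both of the nonoxidative branch, in the rest of the pentose phosphate pathway, and none rose. In glycogen metabolism 3 of 10 fell, with the branching enzyme Gbe1 lowest (-0.53), and the glycogen synthase Gys1 rose (0.33). In the tricarboxylic acid cycle 2 of 17 fell, Idh3a (-0.43) and Sdhc (-0.24), and none rose. In the hypoxia response 5 of 18 fell and 1 rose, so that 33.3% of that list was called. Ndrg1 fell by 2.72 on the log2 scale and Arnt, the partner of the hypoxia-inducible factors, rose (0.29), while Hif1a had 0.04 and was not called. Epas1, which encodes the related factor HIF-2α, was at 8.93, 9.12 and 6.10 in siNC and 2.30, 1.94 and 2.76 in siQk, without overlap, and fell by 1.78 on the log2 scale (FDR 0.00148 from edgeR). Of 14 tested glycolytic isozymes and partners outside the members, 1 was called, Emb, a chaperone of monocarboxylate transporters, at 4.33, 6.54 and 5.15 in siNC and 9.77, 7.53 and 8.005 in siQk (0.66, FDR 0.0256 from edgeR). Gpd1, Mpc1, Gbe1, Gys1, Idh3a, Ndrg1 and Mpc2 were called whichever library was left out. Each of the following calls was lost when some libraries were left out, namely those of Pcx (0.42 to 0.43 where lost, without siQk replicate 2 or 3), Pdhx (-0.34 to -0.25, without any library but siNC replicate 2), Rpe (-0.65 to -0.51, without siNC replicate 1 or 2 or siQk replicate 1 or 3), Taldo1 (-0.52 to -0.43, without any siQk library), Sdhc (-0.25 to -0.21, without siNC replicate 1 or any siQk library), and those of Arnt (0.26 to 0.29, without siNC replicate 1 or 3 or siQk replicate 2 or 3) and Emb (0.53 to 0.73, without any library but siNC replicate 2). The lower calls of Mpc2, Pdhx, Rpe, Taldo1 and Sdhc were also lost with library size only (-0.18, -0.16, -0.41, -0.32 and -0.09). With library size in place of TMM factors the median of all tested genes rose to 0.16 and the calls among the 85 other pathway genes became 12 higher and 10 lower.

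**Figure D4:**
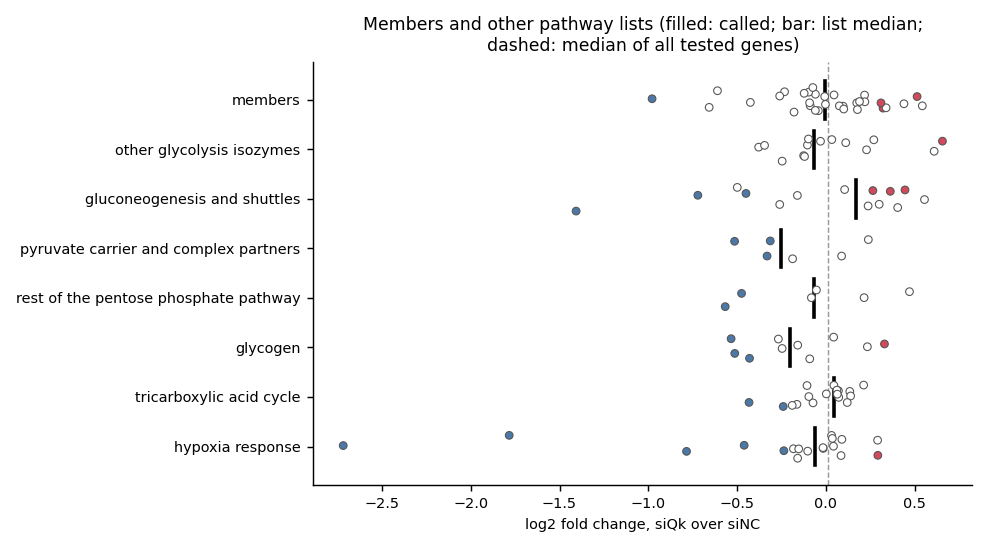
Log2 fold change (siQk over siNC) of tested genes in each list; red and blue points were called higher and lower, open points were not called, black bars are list medians and the dashed line is the median of all tested genes. The called points of the pyruvate carrier list all lie left of 0, and the members' median lies at the dashed line.

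Levels of some glycolytic genes may depend on how reads shared with annotated pseudogenes were assigned, which is not given in the sources used here. For 7 members (Gpi1, Pgk1, Eno1, Pkm, Ldha, Ldhb and Pdhb) 50% or more of the longest coding transcript recurs in annotated pseudogenes at 95% identity or more over at least 75 bases, and for 24 members no such copy was found. Mean siNC levels of the 7 ran from 9.61 (Eno1) and 16.4 (Pgk1) to 203 (Pkm) scaled RPKM. Their median was 94.2, against 15.5 for the other 27. The sets hold different enzymes, so these medians do not measure the effect of read assignment, which was not tested. Gapdh, whose enzyme carries out a central step and whose transcript is usually abundant, lay at only 1.38 to 1.99 scaled RPKM. It has 78 pseudogenes with such copies, covering 86.6% of its transcript, and its log2 fold change of 0.23 was not called. Slc16a1, Pgd and Hk1 have no pseudogene copy of this kind. Exons of an antisense gene cover 21.2% of the exon bases of Pdha1, 18.05% of those of Pfkp and 12.3% of those of Gpi1. Exons of another gene on the same strand cover 27.1% of the exon bases of Pfkfb2 and 6.87% of those of Pkm.

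**Figure D5:**
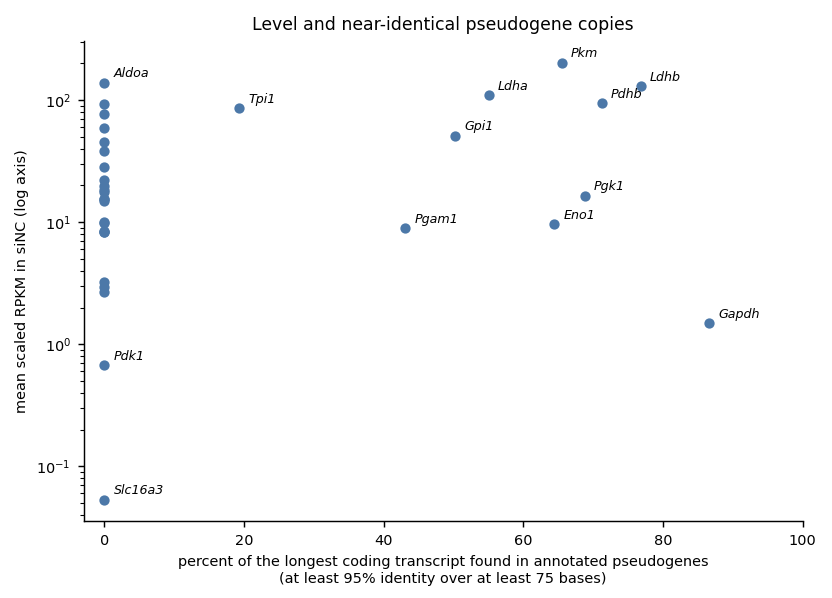
Mean scaled RPKM in siNC (log axis) against the percent of the longest coding transcript that recurs in annotated pseudogenes, for the members with a level above 0 and Gapdh. Gapdh lies lowest among the genes with copies (86.6%), and Pkm (65.5%) lies highest.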

How the data were processed

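RNA of mOPCs was measured in 6 libraries, 3 siNC and 3 siQk, as poly-A selected, unstranded, 75-nt paired-end reads. The authors used OLego for alignment to mm10 and Quantas for gene quantification (versions and annotation not given in the sources used here). The authors deposited an estimated count of tags per gene, not normalized, and RPKM, which is that count scaled by exon length and library total. The sources do not say if 1 tag stands for 1 read or 1 pair. The members and the lists were chosen with earlier results of these data known.

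Totals ranged from 58166490 to 141045937 tags. Expected counts were rounded to whole numbers, and genes with an average log2 CPM over 0 (12505 of 23038) were tested with edgeR 4.0.16 (quasi-likelihood, TMM, group as the only term, R 4.3.3). Calls needed P below 0.01 and Benjamini-Hochberg FDR below 0.1 over all tested genes. The fit was tested on simulated data. All pairs of libraries of a group differed beyond sampling noise (chi-square per degree of freedom at least 36.3). The labels call the libraries biological replicates without naming separate cultures, and the study's methods describe independent culture replicates. The p-values measure the spread between these libraries. Because 3 siRNAs against Qk were used, the siQk spread may include differences between siRNAs, which was not tested.

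Named were Qk, every member, and from each pathway list the called genes with the highest and lowest log2 fold change. Gapdh, Hif1a, Mpc1, Mpc2, Pdhx, Pdp1 and Pcx were named whatever their values. Olig1, S100b, Tubb3, Stmn2, C1qa, C1qb and Cldn5 had the highest or lowest mean of their marker lists, and not every such marker was named. Rn45s, Mobp, Mog, Mbp, Mag, Cnp, Opalin, Snap25, Nefl and Epas1 were chosen after their values were seen. One mature OL marker of the list is not reported here. Copies were found with blastn 2.17.0 in GENCODE M21 transcripts. Gene coordinates are from RefSeq GRCm38.p6. Alternatives were DESeq2 1.42.0, edgeR's likelihood ratio test, other normalizations, filters and cutoffs, a replicate block, RPKM as deposited, tag counts in place of RPKM and each library left out.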

Additional observations from a re-analysis of the deposited data

How the results depend on the processing

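Of Qk, the 32 tested members and the 85 tested other pathway genes, none turned its direction while called, and Slc16a1, Pkm and Pgd lost their calls only where the cutoff asked for FDR below 0.05 and a log2 fold change of 1 or more in size. Over 15 alternatives, 454 of the 480 values of single members kept their side of the threshold, 10 lost a call and 16 gained one, and 14 members, none of them called, changed sign under some alternative. Members called numbered 7 with DESeq2 and 7 with the likelihood ratio test, where 4 and 3 were lower, while these tests called 4894 and 4301 of all 12505 genes. Upper quartile factors gave 5 members higher, and so did library size only (5). These scalings moved the members' median to 0.056 and 0.1445, the latter beside 0.16 for all tested genes. With library size only, 25 of 32 members lay above 0, and the other pathway genes split into 12 higher and 10 lower. The cutoff on fold change left 0 members (0 higher, 0 lower), 3 other pathway genes (3 lower, 0 higher) and 946 of all genes, whereas at the main rule edgeR called 4 members. RPKM as deposited gave 13 of 32 members without overlap and 58.3% of all genes. Same-numbered libraries did not deviate together (correlations -0.053, -0.15 and -0.34), so the numbers were not taken as pairs. With the replicate block, 3 members were called (Hk1 was lost, 0.33), 17 other pathway genes (3 of them higher) and 2796 of all genes. Leaving out 1 library gave 3 to 5 members called, 1 to 2 lower and 2 to 3 higher. It gave 14 to 25 other pathway genes, 11 to 18 lower and 1 to 7 higher, and 2478 (without siQk replicate 1) to 3704 of all genes. It also gave a members' median of -0.0175 to 0.047, 12 to 18 members without overlap (18 without siNC replicate 2, where 64.1% of all genes did not overlap, within a range of 57.9% to 64.5%) and 3 to 8 isozyme shares without overlap. With 3 libraries a group, changes of members with wide intervals, such as Pfkp, Pdk1 and Ldhb, were not resolved, and Slc16a3 and Pdk4 were left untested by their low level.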
